A study of Mus musculus and Rattus norvegicus with 32 samples.

Results

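The comparison asked how the liver response of mice to trichloroethylene (TCE), a chlorinated solvent, differed between repeated and single dosing. It used 16 of the 32 arrays of a study that also treated rats, namely all arrays of mouse liver, chosen by species alone. For every probe set, the log2 difference between TCE and corn oil arrays after a single dose was subtracted from the same difference after repeated doses. Male B6C3F1 mice, a hybrid mouse stock, received 1500 mg/kg TCE in corn oil, or corn oil alone, by oral gavage. They were dosed once and were 8 weeks old, or were dosed daily over 14 days and were 10 weeks old, and livers were collected 18 h later. The 4 groups (single-dose oil, single-dose TCE, repeated-dose oil, repeated-dose TCE) had 4 arrays each. Schedule and age changed together, so their parts in a difference cannot be told apart. The labels do not say that the arrays of a group came from separate animals, so the p-values measure spread among arrays that may be technical.

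The deposited value of a probe set is a ratio. Within each schedule the median of the 4 oil arrays was set to 1, so a value of 3 on a TCE array is 3 times the oil median of the same schedule. Levels in oil or TCE livers cannot be compared between the schedules, only their ratios. Nor can levels be compared between genes, and how far a probe set stood above background is unknown. In whole liver, fewer cells of a type and less RNA per cell cannot be told apart.

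As background, rodent liver turns TCE into chloral and trichloroacetic acid, and the acid activates PPARα, a nuclear receptor. PPARα raises transcription of the Cyp4a fatty acid hydroxylases and of the peroxisomal enzymes that shorten fatty acids. Other stress programs have their own regulators: heat shock factor raises cytosolic chaperones, and the unfolded protein response raises chaperones of the endoplasmic reticulum (ER) where secreted proteins fold. Metallothioneins are small zinc-binding proteins raised by metals, stress and glucocorticoids, and interferon raises a set of antiviral genes through a shared promoter element.

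The promoters of 4 genes whose schedule difference passed are shown first, chosen because their families have well-known response elements close to the start of the gene. Each is a RefSeq window of mouse build GRCm38.p6 from 250 bases before to 50 after the start, in the direction of the gene. For Mt1 the start used by RefSeq's window lies inside the gene as listed, so most of that window is downstream of the listed gene start. Capitals mark every match, on either strand, of the motif named. Mt1 (gene chr8:94178883-94180327) and Mt2 (gene chr8:94172618-94173567) are neighbours. Their windows, chr8:94178839-94179138 and chr8:94172368-94172667, both on the plus strand, are marked for the metal response cores TGCACNC and TGCGCNC, with 3 matches in Mt1 and 4 in Mt2 and none overlapping another.
Mt1: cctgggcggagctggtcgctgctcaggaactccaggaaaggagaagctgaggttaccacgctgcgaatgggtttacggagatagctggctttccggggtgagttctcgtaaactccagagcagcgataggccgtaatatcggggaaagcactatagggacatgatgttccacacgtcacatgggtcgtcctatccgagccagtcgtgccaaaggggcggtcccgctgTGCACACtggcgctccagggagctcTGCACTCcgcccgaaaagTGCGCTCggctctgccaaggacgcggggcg
Mt2: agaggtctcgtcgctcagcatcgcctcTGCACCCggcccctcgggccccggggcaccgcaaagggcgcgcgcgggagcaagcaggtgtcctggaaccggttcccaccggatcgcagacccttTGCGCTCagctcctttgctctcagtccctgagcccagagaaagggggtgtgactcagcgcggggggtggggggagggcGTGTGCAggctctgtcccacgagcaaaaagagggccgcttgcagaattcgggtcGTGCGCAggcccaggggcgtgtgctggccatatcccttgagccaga

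Hspa5 (gene chr2:34772090-34776529) encodes BiP, the main ER chaperone of the Hsp70 family, and its window chr2:34771840-34772139 on the plus strand holds 1 match of the ER stress element, searched as CCAAT, any 9 bases and CCACG. Ifit1 (gene chr19:34640889-34650009) encodes an antiviral protein that binds foreign RNA. Its window chr19:34640639-34640938 on the plus strand holds 2 matches of the interferon-stimulated response element, searched as GAAA, any 2 bases and GAAA, both read on the opposite strand and not overlapping.
Hspa5: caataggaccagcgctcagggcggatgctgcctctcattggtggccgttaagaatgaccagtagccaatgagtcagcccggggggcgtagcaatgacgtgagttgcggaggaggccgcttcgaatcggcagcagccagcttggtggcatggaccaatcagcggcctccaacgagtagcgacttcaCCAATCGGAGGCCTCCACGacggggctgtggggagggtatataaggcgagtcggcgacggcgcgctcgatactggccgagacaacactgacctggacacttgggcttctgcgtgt
Ifit1: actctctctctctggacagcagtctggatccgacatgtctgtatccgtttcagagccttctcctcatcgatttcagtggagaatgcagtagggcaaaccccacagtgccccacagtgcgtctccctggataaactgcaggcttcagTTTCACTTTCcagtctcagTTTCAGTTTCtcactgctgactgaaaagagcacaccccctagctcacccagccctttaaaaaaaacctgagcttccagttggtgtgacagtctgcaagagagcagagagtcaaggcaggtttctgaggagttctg

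Matches of these letters differ in how common they are. Of 32851 windows of the same length, 25.7% held a metal response core, 3.44% an interferon-stimulated response element and 0.119% an ER stress element. A match is a description of the sequence and says nothing of binding in these livers.

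Array controls were examined before any gene. Gapdh is probed at both ends of its transcript, and a higher 3′ minus 5′ log2 value reflects a shortage of signal from the 5′ end. It was 1.51 ± 0.954 (SD, n = 4) on single-dose TCE arrays against -0.03 ± 0.169 on their oil arrays, and 1.04 ± 0.942 on repeated-dose TCE arrays against 0.25 ± 0.810. TCE arrays of both schedules differed in it by -0.48 (repeated minus single; two-sided exact permutation p = 0.457). Actin, probed in the same way, was higher on TCE than on oil arrays by 0.76 after a single dose and 0.72 after repeated doses (two-sided exact permutation p = 0.0286 and 0.0571), where the Gapdh differences of 1.54 and 0.78 had p = 0.0571 and 0.371. Bacterial spike-in controls were lower on TCE than on oil arrays, by 0.62 and 1.15 log2 units (two-sided exact permutation p = 0.0286 each). They were also lower by 0.53 log2 units on repeated-dose than on single-dose TCE arrays (two-sided exact permutation p = 0.0286, the smallest that 4 against 4 allow). The share of these measures in the gene differences was not tested. Exocrine pancreas genes stood high on 4 arrays in 3 groups, with a median over 8 measured genes of 2.95 on single-dose oil array 3, 3.20 and 4.03 on single-dose TCE arrays 3 and 4, and 2.01 on repeated-dose TCE array 1, against -1.30 to 0.36 on the other 12. None of those genes passed the threshold in either schedule or in the difference.

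TCE changed about as many probe sets upward as downward after a single dose and mainly downward after repeated doses. After a single dose 517 probe sets rose (4.16%) and 514 fell (4.14%) at a limma adjusted p under 0.05, together 8.3% of 12422. After repeated doses 278 rose (2.24%) and 1053 fell (8.48%), together 10.7%. Leaving out 1 array lowered the single-dose count by over 1.5 times for single-dose oil arrays 2 (596) and 3 (555) and TCE arrays 1 (519), 3 (653) and 4 (611). It did so to the repeated-dose count for repeated-dose oil arrays 2 (687) and 4 (772) and TCE array 2 (692). Over all probe sets the median log2 change was -0.09 after a single dose and -0.15 after repeated doses. The schedule difference itself passed for 109 probe sets, or 0.877%, of which 83 (76.1%) were lower after repeated doses and 26 higher. Among 8251 genes named by a probe set with 1 symbol, 66 were lower (0.8%) and 18 higher (0.218%). With each array centred on its median the split was 48 lower and 30 higher.

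The median standard error of a schedule difference was 0.41 log2 units, and the smallest difference that passed was 0.76. The count of 109 hung on single arrays: it ranged from 21, without single-dose TCE array 1, to 118, without repeated-dose oil array 3. It was also more than 1.5 times lower without single-dose oil arrays 1 (38) or 3 (36), single-dose TCE arrays 3 (42) or 4 (33), repeated-dose oil arrays 1 (38), 2 (30) or 4 (35), or repeated-dose TCE arrays 1 (46), 2 (34) or 3 (58). It was 0 after quantile normalization of the arrays, with 654 probe sets at an unadjusted p under 0.05 where the deposited scaling gave 2338. Of 41 differences named below, 8 passed whichever array was left out, those of Apoa4, Cherp, Col1a2, Crnkl1, Fas, Mt1, Nav2 and Srm. Each of the 16 arrays, when left out, took at least 9 of the other differences past the threshold, with adjusted p no higher than 0.107. No named difference changed sign under any alternative.

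Of the probe sets that rose after a single dose, 327 (63.2%) had a repeated-dose change above 0, and of those that fell 462 (89.9%) had one below 0. Over all probe sets 58.3% had the same sign in both. In both schedules 254 probe sets passed, which is 24.6% of the single-dose and 19.1% of the repeated-dose calls, and 244 of them moved the same way. The 244 became 130 to 155 without single-dose oil array 2, 3 or 4, single-dose TCE array 1 or 4, repeated-dose oil array 2 or 4, or repeated-dose TCE array 2. Effects are called persisting where both schedules passed in the same direction and the difference did not, and reversing where both passed in opposite directions. They are called smaller after repeated doses where the single-dose change and the difference passed, and larger after repeated doses where the repeated-dose change and the difference passed. By gene they numbered 184 (2.23% of all named genes), 6 (0.0727%), 44 (0.533%) and 34 (0.412%). The difference that decides the last 3 is also the rule that sorts the genes, so these shares are a description. A persisting effect is not shown to be equal in both schedules, because a difference can miss the threshold without being small. Single-dose and repeated-dose TCE arrays did not overlap in any of the 84 genes whose difference passed, nor in 26.8% of all named genes. A lack of overlap given below for single genes is therefore no further support.

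**Figure D1:**
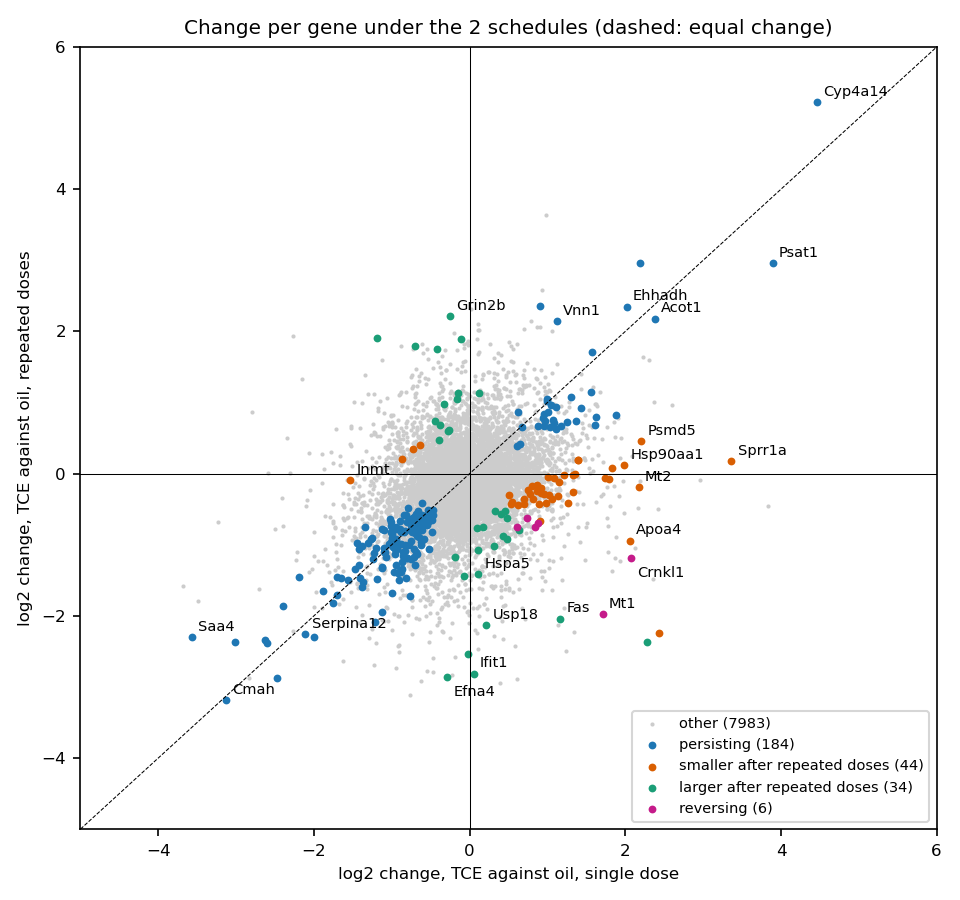
Log2 change (TCE against oil) after a single dose on the x axis and after repeated doses on the y axis, 1 point per named gene, coloured by pattern. Persisting genes (184) are by rule those whose difference did not pass, which itself limits their distance from the dashed line of equal change. Genes smaller after repeated doses (44) lie mostly at the right near or below 0.

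Of the omega-oxidation and acyl-CoA thioesterase list, 4 of 6 measured genes rose in both schedules, and of the peroxisomal list 5 of 19. Cyp4a14, a fatty acid omega-hydroxylase of the ER (chr4:115486200-115496158), read 0.375, 1.12, 1.01 and 0.995 on the single-dose oil arrays and 16.4, 17.9, 21.4 and 15.7 on the TCE arrays. On repeated-dose oil arrays it read 4.97, 0.461, 0.576 and 1.42, and on their TCE arrays 42.7, 47.2, 54.3 and 33.3. All TCE arrays lay far above all oil arrays, and the repeated-dose TCE arrays lay above the single-dose ones, although 1 repeated-dose oil array was itself high. The log2 change was 4.46 ± 0.58 (SE, n = 4 per group) and 5.22 ± 0.58, and the difference of 0.76 ± 0.82 did not pass (adjusted p = 0.659).

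Ehhadh, the bifunctional enzyme of peroxisomal beta-oxidation (chr16:21761285-21787834), was less variable. It read 4.06, 3.74, 5.78 and 3.36 on single-dose TCE arrays and 5.03, 4.78, 5.83 and 4.79 on repeated-dose TCE arrays, and between 0.855 and 1.17 on all 8 oil arrays. The groups of TCE arrays overlapped each other and neither overlapped oil. Its changes were 2.02 ± 0.17 and 2.35 ± 0.17, with adjusted p for the difference of 0.485. Acot1, which splits fatty acyl-CoA, changed by 2.38 and 2.18, and Aldh3a2, which oxidises fatty aldehydes, by 1.58 and 1.70. Cyp4a10, a second omega-hydroxylase, changed by 2.19 and 2.97, and the xenobiotic hydroxylase Cyp2b10 by 1.31 and 1.08. Repeated-dose oil array 1, the array high for Cyp4a14, also read 4.65 for Cyp4a10, 1.85 for Acot1 and 1.36 for Aldh3a2. The other oil arrays of that schedule read 0.288 to 1.15, 0.858 to 1.02 and 0.965 to 1.001. For Ehhadh array 1 read 1.17 and for Vnn1 0.887. It enters every repeated-dose change and schedule difference, and what set it apart was not tested.

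The omega-oxidation and thioesterase list had a median change of 1.89 and 1.94, with 4 genes up in each schedule, and the share of all named genes that rose was 4.74% and 2.39%. Cyp4a12b, a male-type member of the family, fell after a single dose (-0.71, adjusted p = 0.0255) and read -0.33 after repeated doses. In the peroxisomal list 7 of 19 rose and 1 fell after a single dose and 6 rose after repeated doses, 5 of them in both. The median difference over these 19 genes was -0.06, where all named genes had -0.10. Pex11a, which divides peroxisomes, rose by 1.63 and 0.79, and its difference of -0.83 ± 0.27 did not pass (adjusted p = 0.121). Repeated-dose oil array 1 read 1.53 for it, against 0.862 to 1.11 on the other oil arrays of that schedule. Of 15 mitochondrial fatty acid oxidation genes, 1 rose after a single dose, and 2 rose and 1 fell after repeated doses, where 9.42% of all named genes fell. Cpt2 of the carnitine shuttle rose in both, by 0.95 and 0.83, Eci1 rose after repeated doses by 0.66, and the electron carrier Etfa fell by 0.73 there.

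Vnn1, a pantetheinase anchored to the cell surface and a PPARα target, had different ratios to the oil median of its schedule in the TCE groups. It read 1.48, 2.38, 2.78 and 2.56 on single-dose TCE arrays and 4.68, 4.59, 4.20 and 4.36 on repeated-dose TCE arrays, against 0.822 to 1.36 on the oil arrays. Neither TCE group overlapped the other or oil. The rises were 1.12 ± 0.20 and 2.14 ± 0.20, but the difference of 1.02 ± 0.29 did not pass (adjusted p = 0.0821). Other rises that persisted and lay outside this pathway were those of Psat1, of serine synthesis, by 3.89 and 2.96, and of Jkamp, an ER membrane protein, by 1.56 and 1.14. Psat1 ranged widely on repeated-dose TCE arrays, at 18.3, 10.7, 7.19 and 1.72.

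Falls made up most of the persisting genes, 149 of 184. Serpina12 (vaspin, a serpin secreted by liver and fat) read 0.338, 0.144, 0.323 and 0.180 on single-dose TCE arrays and 0.161, 0.128, 0.311 and 0.189 on repeated-dose TCE arrays. The oil arrays read 0.522 to 1.23, above every TCE array, and both TCE groups overlapped. Its changes were -2.11 ± 0.33 and -2.26 ± 0.33. Sdc4, a cell surface proteoglycan, changed by -1.65 and -1.46, and St3gal3, a sialyltransferase, by -1.70 and -1.71. Cmah, which makes a sialic acid, changed by -3.13 and -3.19, with repeated-dose oil array 1 as low as the TCE arrays (0.0894).

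In the complement and coagulation list 15 of 31 measured genes fell after a single dose, 19 after repeated doses and 11 in both, and none rose. Of all named genes 9.3% passed after a single dose and 11.8% after repeated doses, and the share that fell was 4.56% and 9.42%. Prothrombin (F2) changed by -1.07 and -1.18, protein C (Proc) by -0.98 and -0.93 and complement C2 by -0.93 and -1.06. The median difference was -0.14. Of the acute phase and plasma protein list 5 of 27 fell after a single dose and 13 after repeated doses, all 5 in both, and 1 (Lcn2, an iron carrier, by 0.59) rose after repeated doses. Its median difference was -0.35. The fibrinogen beta chain Fgb changed by -0.92 and -1.40.

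**Figure D2:**
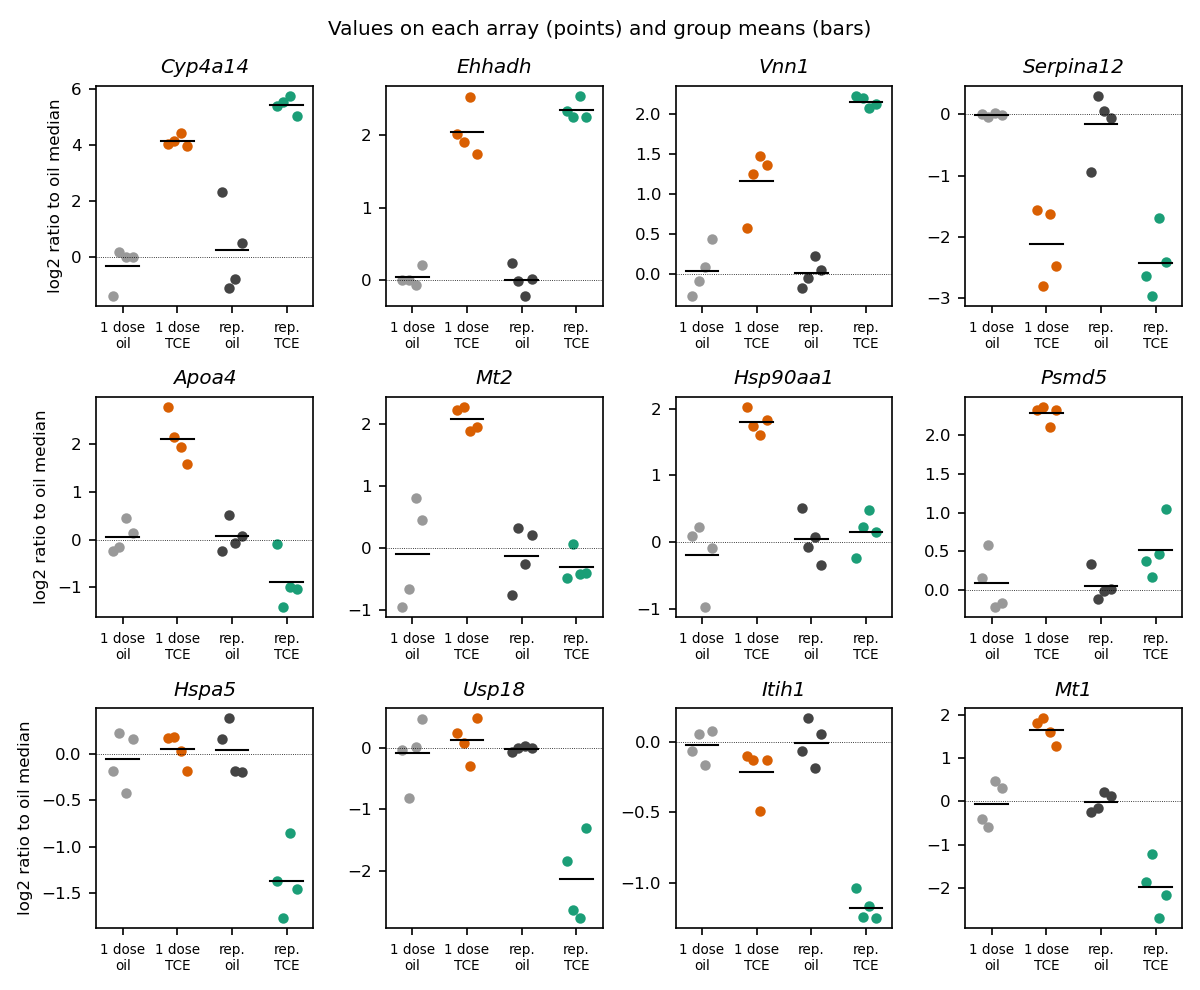
Log2 ratio to the oil median on each array (points) with group means (bars) for 12 genes, grouped by dose schedule (rep., repeated doses) and treatment, 4 arrays per group. Cyp4a14 and Ehhadh are high on all TCE arrays, Apoa4, Mt2, Hsp90aa1 and Psmd5 are high on the single-dose TCE arrays only, Hspa5, Usp18 and Itih1 are low on the repeated-dose TCE arrays only, and Mt1 is high, then low.

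Genes that rose after a single dose and were near or below oil after repeated doses included Apoa4, the metallothionein Mt2, the chaperone Hsp90aa1 and the proteasome assembly gene Psmd5. Of 54 probe sets with a smaller effect after repeated doses, 47 had risen after the single dose and 44 had the opposite sign after repeated doses. Apoa4 (chr9:46240844-46243458), an apolipoprotein of triglyceride-rich particles, read 6.81, 4.40, 3.84 and 3.0 on single-dose TCE arrays. On repeated-dose TCE arrays it read 0.940, 0.375, 0.504 and 0.492, and on the oil arrays 0.842 to 1.42. The single-dose TCE arrays were above all others and 3 of the repeated-dose ones were below all oil arrays. Its change went from 2.06 ± 0.30 to -0.94 ± 0.30, a difference of -3.0 ± 0.42 (adjusted p = 0.0103, and at most 0.0332 with any array left out).

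Mt2 read 4.69, 4.85, 3.69 and 3.86 on single-dose TCE arrays and 0.718, 1.05, 0.751 and 0.756 on repeated-dose TCE arrays. Its oil arrays ranged from 0.516 to 1.75, so the repeated-dose TCE arrays lay within the oil range. The change was 2.17 ± 0.35 and -0.19 ± 0.35, and the difference -2.36 ± 0.50 (adjusted p = 0.0456, up to 0.0981 with 1 array left out, highest without single-dose TCE array 1). Sprr1a, a small proline-rich protein raised in injured tissues, read 7.24, 19.2, 11.2 and 5.59 against 1.52, 1.41, 1.45 and 0.550 on the TCE arrays of single and repeated doses. Its difference was -3.18 ± 0.67 (adjusted p = 0.0456).

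Among cytosolic chaperones, Hsp90aa1 (chr12:110691036-110696395), the inducible Hsp90, read 4.07, 3.36, 3.03 and 3.55 on single-dose TCE arrays. It read 0.850, 1.17, 1.40 and 1.12 on repeated-dose TCE arrays, inside the range of the oil arrays of its schedule. The difference was -1.87 ± 0.36 (adjusted p = 0.0420, and 0.0914 without single-dose TCE array 1). A second, noisier probe set of Hsp90aa1 differed by 1.23 the other way and did not pass (adjusted p = 0.621). In the heat shock list 6 of 23 measured genes rose after a single dose and none fell, and 1 rose and 3 fell after repeated doses. Of all named genes 4.74% rose after a single dose, and 2.39% rose and 9.42% fell after repeated doses, so the 4 repeated-dose calls were near the share over all genes. Those 6 were Hsp90aa1, the Hsp110 family member Hspa4 (0.72), the mitochondrial chaperones Hspa9 (0.60) and Hspe1 (0.83), and the Hsp40 co-chaperones Dnaja1 (0.72) and Dnaja2 (0.87). A second probe set of Hspa4 read 2.048, 1.532, 2.123 and 2.245 on single-dose TCE arrays and 0.544, 0.756, 0.785 and 0.877 on repeated-dose TCE arrays. Its difference passed, while that of the probe set that stood for Hspa4 did not. After repeated doses Hspa8, the constitutive Hsc70, fell by 1.15, Hsph1 fell by 1.03 and Dnajb6 fell by 0.54, and the small heat shock protein Cryab rose by 1.13. The difference was below 0 for 78.3% of the list and for 56.3% of all named genes, with a median of -0.56.

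The proteasome degrades ubiquitin-tagged proteins with a 20S core under a 19S cap. In its list 12 of 41 measured genes rose after a single dose and none fell, where 4.74% of all named genes rose. After repeated doses none rose and 3 fell, near the share of 9.42% of all named genes that fell. After the single dose the rises were in core subunits (Psma7 by 1.11, Psma5 by 1.01), cap subunits (Psmd12 by 1.26, Psmd14 by 0.96) and the activator Psme4 (1.10). Psmd5, which helps to assemble the cap, read 5.03, 5.16, 4.33 and 5.01 on single-dose TCE arrays and 1.29, 1.13, 1.38 and 2.07 on repeated-dose TCE arrays. Its single-dose TCE arrays stood apart from all others, while the repeated-dose ones overlapped oil. Psmd5 was the only member of the list whose difference passed, at -1.74 ± 0.30 (adjusted p = 0.0206, and 0.0562 without single-dose TCE array 1). For 85.4% of the list the difference was below 0, with a median of -0.55, which moved between -0.64 and -0.48 as arrays were left out and was -0.39 after quantile normalization. Ecpas, a proteasome scaffold protein outside the list, differed by -1.68 ± 0.32 (adjusted p = 0.0356).

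Other genes with smaller effects after repeated doses had separate roles. Srm, which makes the polyamine spermidine, read 4.61, 2.52, 3.13 and 4.10 on single-dose TCE arrays and 1.11, 0.890, 0.727 and 1.11 on repeated-dose TCE arrays, with a difference of -1.79 ± 0.29 (adjusted p = 0.0188). Cherp, an ER-associated calcium homeostasis protein also found with splicing factors, read 3.43, 4.34, 3.45 and 2.74 and then 0.990, 0.903, 0.890 and 1.29 (difference -1.76 ± 0.24, adjusted p = 0.00717). In both genes the TCE groups did not overlap, as in 26.8% of all named genes, and the repeated-dose TCE arrays lay around oil. Both kept the call whichever array was left out, with adjusted p of at most 0.0446 for Srm and 0.0291 for Cherp. Cds2, of phosphatidylinositol synthesis, differed by -1.86 ± 0.37 (adjusted p = 0.0427). Ccdc47, an ER calcium-binding protein with wide spread between arrays, rose by 2.43 ± 0.71 after a single dose (adjusted p = 0.0481) and read -2.24 after repeated doses (adjusted p = 0.0556), a difference of -4.67 ± 1.0 (adjusted p = 0.0456, and up to 0.105 with 1 array left out). Cyp8b1, the sterol 12-alpha-hydroxylase of cholic acid synthesis, changed by 0.91 and -0.67 and differed by -1.58 ± 0.31 (adjusted p = 0.0420). Cyp7a1, which starts bile acid synthesis and sets its rate, fell after repeated doses by 1.85, and its larger difference of -2.30 ± 0.55 did not pass (adjusted p = 0.0599).

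Single-dose falls that were smaller after repeated doses were few, at 7 of the 54 probe sets. Inmt, which methylates indoles and other amines, read 0.310, 0.300, 0.429 and 0.347 on single-dose TCE arrays and 1.28, 0.721, 0.794 and 0.997 on repeated-dose TCE arrays. The single-dose TCE arrays were below all others, and the repeated-dose ones overlapped their oil arrays (0.774 to 1.24). The difference was 1.44 ± 0.29 (adjusted p = 0.0427). In the cholesterol synthesis list 5 of 17 measured genes fell after the single dose, where 4.56% of all named genes fell. None passed after repeated doses, where 11.8% of all named genes did. Its median difference was 0.38, moving between 0.07 and 0.63 as arrays were left out, and no member's difference passed.

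**Figure D3:**
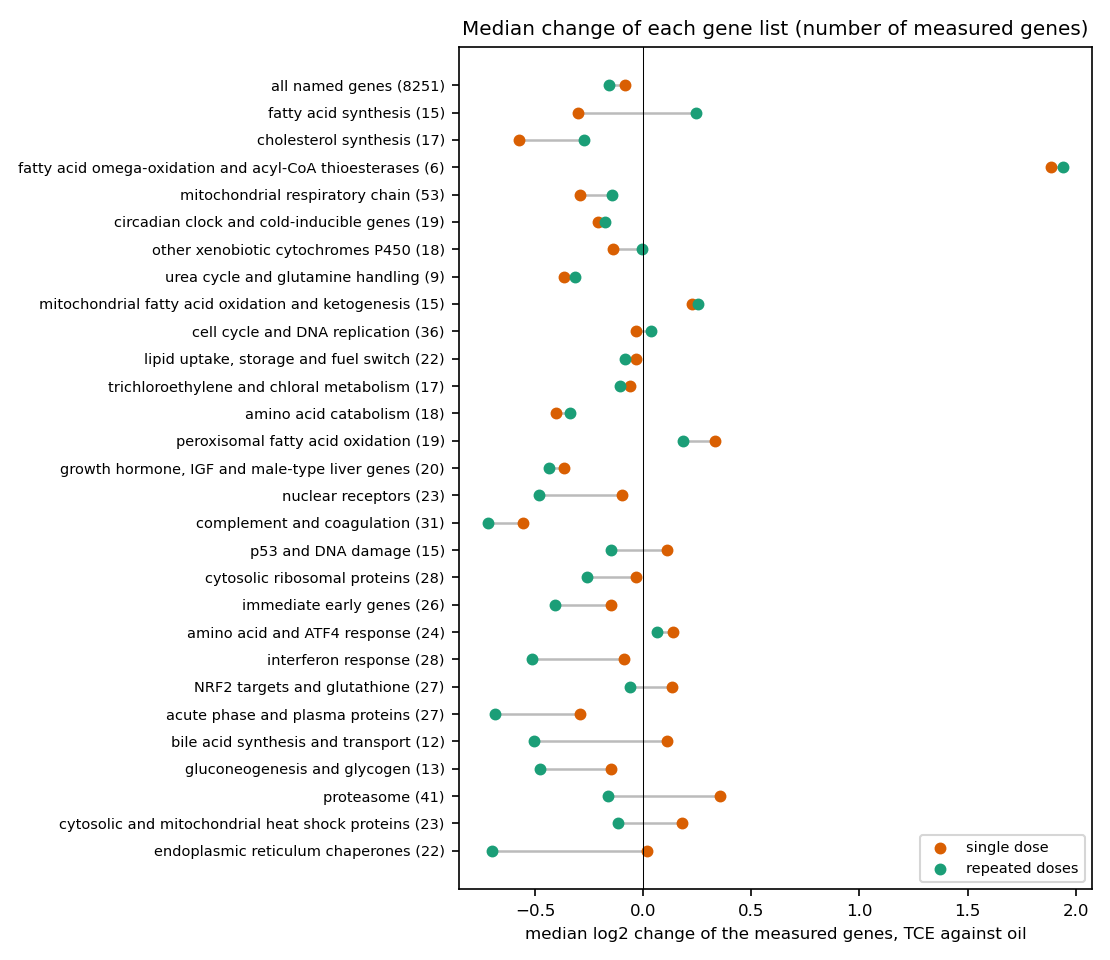
Median log2 change (TCE against oil) of the measured genes of 28 pathway lists, with the number measured in brackets, after a single dose (orange) and repeated doses (green), ordered by the median difference. The ER chaperone, heat shock and proteasome lists have the lowest medians of the difference (-0.62, -0.56 and -0.55) where all named genes have -0.10.

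Among ER chaperone genes, 12 of 22 measured fell after repeated doses, where 9.42% of all named genes fell, and 2 after the single dose, where 4.56% did. Hspa5 read 1.12, 1.14, 1.02 and 0.879 on single-dose TCE arrays and 0.385, 0.292, 0.553 and 0.363 on repeated-dose TCE arrays, against 0.745 to 1.31 on oil arrays. The repeated-dose TCE arrays lay below all other arrays and the single-dose ones within the oil range. Its change went from 0.11 ± 0.22 to -1.41 ± 0.22, a difference of -1.52 ± 0.31 (adjusted p = 0.0427, and up to 0.0950 with 1 array left out, highest without single-dose oil array 3). None of the list rose in either schedule. Pdia3 and Herpud1 were the members that fell in both. The 12 included the Hsp90 of the ER, Hsp90b1 (-0.87), the co-chaperone Dnajb11 (-1.05), calnexin Canx (-0.57) and the disulfide isomerases Pdia3 (-1.94), Pdia4 (-1.32) and Pdia6 (-0.89).

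The transcription factor Xbp1, which drives such genes, read -0.70 after repeated doses and passed there and -0.27 after the single dose. Of the 22 members 86.4% had a difference below 0, with a median of -0.62, and Hspa5 was the one whose difference passed. The median was between -0.68 and -0.48 as arrays were left out and -0.34 after quantile normalization. Counted window by window, 0.119% of all windows held an ER stress element like that printed for Hspa5. Of 19 members with a promoter window, 8 (42.1%) held it in any of their windows. Those were Calr, Canx, Creld2, Dnajc3, Ero1b, Hsp90b1, Hspa5 and Pdia6. This element was described from genes of this kind, and Calr, Creld2 and Dnajc3 passed in neither schedule.

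The interferon response list had no call after a single dose, and 8 of 28 measured genes fell after repeated doses, where 9.42% of all named genes fell. Usp18 (chr6:121245906-121270917), which removes the ubiquitin-like ISG15 and damps interferon signalling, read 1.18, 1.06, 0.813 and 1.41 on single-dose TCE arrays. On repeated-dose TCE arrays it read 0.278, 0.161, 0.146 and 0.407, below every other array. The difference was -2.35 ± 0.45 (adjusted p = 0.0415, and 0.0914 without single-dose TCE array 1). Ifit1 read 0.558, 0.799, 1.31 and 1.59 and then 0.299, 0.163, 0.132 and 0.0588, again with no overlap between schedules, and differed by -2.87 ± 0.62 (adjusted p = 0.0464, and 0.103 without single-dose oil array 3). Ifit3, a partner of Ifit1, changed by -2.03 after repeated doses, the antiviral enzyme Rsad2 by -1.07, the GTPases Irgm1 and Igtp by -1.78 and -0.89, and the transcription factor Irf9 by -0.64.

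The median difference of the interferon list was -0.26, and 78.6% of its members were below 0. Counted window by window, 3.44% of all windows held the element marked in Ifit1. Of 23 members with a promoter window, 12 (52.2%) held it in any of their windows. The list is made of genes of the kind that this shared element is known from, so the share is a description. Usp18 and Irf9 were not among the 12. Lymphocyte and macrophage markers are given beside the interferon list because immune cells also express those genes. After repeated doses 1 of 13 lymphocyte and 2 of 13 macrophage markers fell, near the share of 9.42% of all named genes, with medians of -0.11 and -0.34. After a single dose none passed, with medians of -0.04 and -0.33. Their part in the interferon gene values was not tested.

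**Figure D4:**
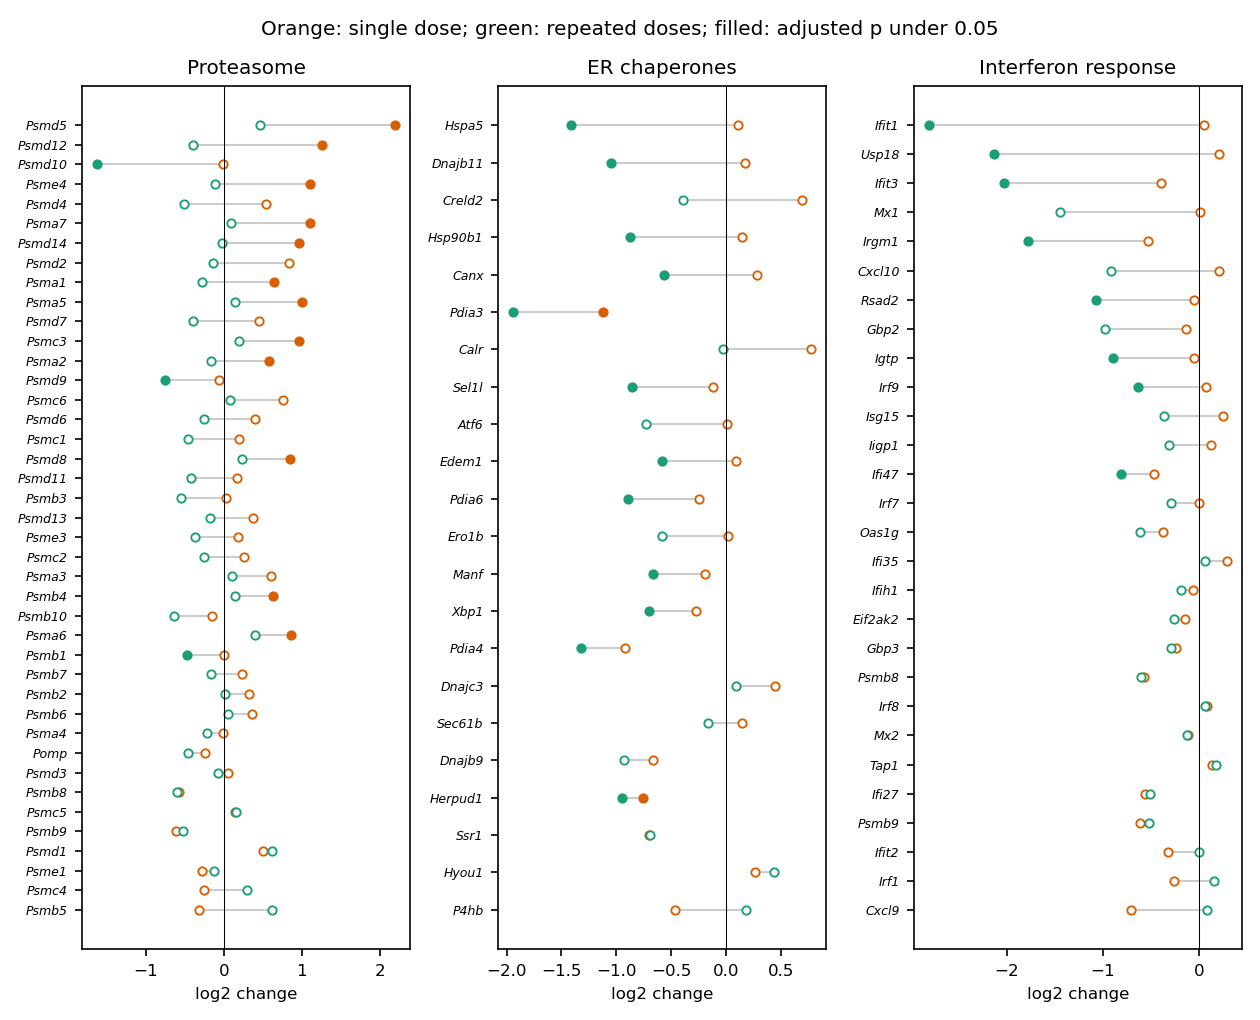
Log2 change (TCE against oil) of each measured proteasome, ER chaperone and interferon response gene after a single dose (orange) and repeated doses (green), filled where the adjusted p is under 0.05. Filled orange points (12) lie at the right of the proteasome panel, and filled green points lie at the left of the ER chaperone (12) and interferon (8) panels.

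Other genes were lower after repeated doses without a call after the single dose. Itih1, a heavy chain of the plasma inter-alpha-trypsin inhibitor, read 0.933, 0.917, 0.712 and 0.917 and then 0.486, 0.421, 0.445 and 0.419 on the TCE arrays. The repeated-dose TCE arrays were below all others and close to each other, with a difference of -0.99 ± 0.19 (adjusted p = 0.0420). Fas (chr19:34290647-34327775), a death receptor and p53 target, read 1.39, 2.11, 2.82 and 3.03 after a single dose, above all oil arrays, and 0.528, 0.153, 0.138 and 0.339 after repeated doses, below all oil arrays. Its single-dose change of 1.17 ± 0.38 did not pass (adjusted p = 0.0781), its repeated-dose fall of 2.04 did, and the difference was -3.21 ± 0.54 (adjusted p = 0.0198). Efna4, a membrane ligand of Eph receptors, differed by -2.57 ± 0.46 and Vamp5, a vesicle fusion protein, by -2.52 ± 0.54 (adjusted p = 0.0252 and 0.0464). Xrn1, the cytoplasmic 5′ to 3′ RNA exonuclease, had a difference of -4.65 ± 0.96 with wide spread between arrays (adjusted p = 0.0442). It read 4.43 to 9.44 on single-dose TCE arrays, above all oil arrays, although single-dose oil array 4 read 4.27. On repeated-dose TCE arrays it read 0.0422 to 0.469, below all oil arrays. Its difference therefore held higher single-dose values as well as lower repeated-dose ones.

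Differences above 0 came in good part from probe sets with marked names. The array's maker marks with r or f in its name a probe set for which selection rules were dropped or whose probes match a gene family. Such names made up 14 of the 26 probe sets with a higher difference (53.8%), 12 of the 83 with a lower one (14.5%) and 15.9% of all probe sets. The probe sets of Crnkl1 (i) and Fas (s) carry other marks, which are not counted in these shares. Among the named lower differences, those of Ccdc47 and Srm came from probe sets marked r or f. Col1a2 (chr6:4505618-4541543), a chain of type I collagen, read 0.766, 0.923, 0.958 and 0.868 and then 2.01, 2.69, 2.26 and 2.02 on the TCE arrays of single and repeated doses with such a probe set. There the repeated-dose TCE arrays lay above all others, and the difference was 1.29 ± 0.20 (adjusted p = 0.0157). A second, unmarked and noisier probe set of Col1a2 changed by -0.98 and -0.81 and differed by 0.17 (adjusted p = 0.920). Of 18 stellate cell and matrix genes, 1 fell after the single dose, and 2 rose and 1 fell after repeated doses. Of all named genes 4.56% fell after the single dose, and 2.39% rose and 9.42% fell after repeated doses.

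Col6a2, a chain of type VI collagen on an unmarked probe set, changed by -0.87 and 0.21 and differed by 1.07 ± 0.23 (adjusted p = 0.0459). Grin2b, a glutamate receptor subunit, read 0.816, 0.778, 1.34 and 0.857 and then 5.98, 4.08, 4.44 and 4.62. Its repeated-dose TCE arrays stood above all others, with a difference of 2.47 ± 0.42 (adjusted p = 0.0198). The recombinase gene Rag1 (2.50 on a marked probe set, and -0.47 on its other), the chemokine receptor homologue Ccr1l1 (3.09), the Golgi transport gene Sft2d1 (2.18) and the protease gene Prss30 (2.00) had the other large differences above 0. For Rab6a, a Golgi GTPase, the gene's probe sets differed in opposite directions (1.19 passed, -1.27 did not).

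Named genes with smaller differences above 0 were Wnk2, Inpp4a, Fignl1, Aopep, Cilp2 and Sct, at 1.02 to 1.31. Those of Inpp4a, Aopep, Cilp2 and Sct came from probe sets marked r or f, and those of Wnk2 and Fignl1 from unmarked ones. Of the 84 genes whose difference passed, 31 had further probe sets, 34 in all. Of these 24 had the same sign as the probe set that stood for the gene, and 1 passed in that direction.

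The 6 reversing genes were all up after a single dose and down after repeated doses. Mt1 read 3.49, 3.80, 3.06 and 2.45 on single-dose TCE arrays against 0.665 to 1.39 on their oil arrays. After repeated doses it read 0.276, 0.428, 0.154 and 0.225 on TCE arrays against 0.851 to 1.16 on oil. Each TCE group lay wholly on its own side of all oil arrays. The change went from 1.71 ± 0.30 to -1.98 ± 0.30 (adjusted p = 0.00512 and 0.00234), and the difference was -3.68 ± 0.43 (adjusted p = 0.00318, at most 0.0140 with any array left out). Its neighbour Mt2, whose promoter holds the same kind of motif, rose by 2.17 after a single dose and read -0.19 after repeated doses.

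Crnkl1 (chr2:145917482-145934700), a spliceosome component, had the lowest adjusted p of the named differences. It read 4.41, 4.87, 4.58 and 3.37 and then 0.348, 0.431, 0.689 and 0.453 on the TCE arrays, and 0.878 to 1.46 on the oil arrays. All TCE arrays lay outside the oil range, above it after a single dose and below it after repeated doses. The difference was -3.26 ± 0.31 (adjusted p = 0.000497, at most 0.00264 with any array left out). Nav2, a cytoskeletal protein, changed by 0.61 and -0.76 with values of 1.65, 1.38, 1.61 and 1.59 and then 0.559, 0.566, 0.792 and 0.522. Both TCE groups were outside the oil range of 0.944 to 1.15, and the difference was -1.36 ± 0.21 (adjusted p = 0.0157).

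Sec61a1, the pore subunit through which secreted proteins enter the ER, read 1.85, 1.51, 1.58 and 1.65 and then 0.548, 0.655, 0.780 and 0.573. No array of either TCE group lay in the oil range of the same schedule except that the highest repeated-dose TCE array was just above the lowest oil array (0.776). Its difference was -1.36 ± 0.24 (adjusted p = 0.0238, and 0.0652 without single-dose TCE array 1), while its other probe set differed by -0.41 and did not pass. R3hdm1, an RNA-binding domain protein, differed by -1.59 ± 0.27 and Fam98a, of a tRNA ligase complex, by -1.57 ± 0.30 (adjusted p = 0.0206 and 0.0356). With each array centred on its median, 6 probe sets reversed where the deposited scaling gave 10.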

How the data were processed

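Per the submitters' processing notes, MAS5 produced the signals, with no version stated there. The authors deposited ratios whose oil median, in every schedule, was found to be 1. How the division was done, and whether arrays were scaled first, is unknown here, and the deposited scaling was kept. The 66 control probe sets were left out of tests, which left 12422. Log2 of the ratio was fitted with limma 3.58.1 (lmFit, eBayes) in R 4.3.3 with a mean per group over 16 arrays, with no pseudocount or filter. P-values were adjusted by the Benjamini-Hochberg method across all probe sets of each comparison, with a threshold of 0.05. The fit was tested on simulated data. The platform annotation gave 10833 probe sets 1 symbol, 396 several and 1193 none. A gene with several probe sets was represented by its least variable one (lowest pooled within-group SD).

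Named genes were the 15 largest differences each way, the 10 leading genes of each pattern (for persisting rises and falls, those whose TCE arrays lay beyond all oil arrays in both schedules) and up to 4 members of each list past a threshold, or 2 otherwise, predicted genes skipped. Further list members in the text were chosen after their values were seen. The members and lists were chosen with earlier results of these data known, and lists were described and not tested. Array controls were compared with exact permutation tests. Promoters are RefSeq windows of GRCm38.p6, which were matched to 139 of 164 named genes by symbol. Alternatives in scaling, pseudocount, filter, variance prior, array weights, replicate block, 5′ signal and arrays left out were run. Python 3.11.15 with matplotlib 3.10.9 drew the figures. The number of arrays limits the precision.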

Additional observations from a re-analysis of the deposited data

Results flagged for a closer look

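The effect of TCE differed between the schedules, by the limma test of the difference itself, for 84 of 8251 genes with a symbol (1.02%). The 41 of them picked by the naming rules above are listed here. Each value is the repeated-dose minus the single-dose log2 change. Above 0 were Ccr1l1 3.09, Rag1 2.50, Grin2b 2.47, Sft2d1 2.18, Prss30 2.00, Inmt 1.44, Sct 1.31, Col1a2 1.29, Cilp2 1.21, Rab6a 1.19, Wnk2 1.08, Col6a2 1.07, Inpp4a 1.07, Fignl1 1.05 and Aopep 1.02. Among stress, proteasome and interferon genes below 0 were Mt1 -3.68, Sprr1a -3.18, Ifit1 -2.87, Mt2 -2.36, Usp18 -2.35, Hsp90aa1 -1.87, Psmd5 -1.74 and Ecpas -1.68. Genes of the ER, of secretion or of the cell surface below 0 were Ccdc47 -4.67, Fas -3.21, Efna4 -2.57, Vamp5 -2.52, Hspa5 -1.52, Sec61a1 -1.36 and Itih1 -0.99. Metabolic genes below 0 were Apoa4 -3.00, Cds2 -1.86, Srm -1.79 and Cyp8b1 -1.58. Genes of RNA handling, translation, the cytoskeleton and other roles below 0 were Xrn1 -4.65, Crnkl1 -3.26, Cherp -1.76, R3hdm1 -1.59, Fam98a -1.57, Nav2 -1.36 and Rpl13a -1.32.

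Single arrays stood far from the other 3 of their group in 11 of 124 groups tested, where Dixon's test by chance marks about 1 in 20. For oil, these were a Cyp4a14 ratio of 0.375 on single-dose array 1, and on repeated-dose array 1 an Aldh3a2 ratio of 1.36, an Sdc4 ratio of 0.723 and a Gapdh 3′ minus 5′ value of 1.46. On single-dose TCE arrays they were a Psmd5 ratio of 4.33 and an Itih1 ratio of 0.712, both on array 3, and a Gapdh value of 0.0935 on array 2. On repeated-dose TCE arrays they were an R3hdm1 ratio of 0.363 on array 1, an Sdc4 ratio of 0.254 and an Mt2 ratio of 1.05 on array 2, and an Sprr1a ratio of 0.550 on array 4.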

How the results depend on the processing

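Directions of the 41 named differences held under every alternative, while the number of calls did not. Of 6143 values of named genes counted under 26 alternatives, 4758 kept direction and side of the threshold, 1385 kept direction only and 0 reversed. These values do not cover every change of every named gene, and a change near 0 in a single schedule may switch sign. Counts are of probe sets, in the order difference, single dose, repeated doses, persisting, smaller, larger and reversing, with 109, 1031, 1331, 244, 54, 45 and 10 in the deposited scaling. Quantile normalization gave 0, 59, 7, 4, 0, 0 and 0, and centring on array medians 6 reversing. On log2(value + 1), 306 differed, 173 were smaller and 99 larger. Without the noisiest 40% of probe sets 672 differed, 421 persisted, 262 were smaller, 311 larger and 39 reversed. With array weights 222 differed, 1550 passed after a single dose, 446 persisted, 101 were smaller, 92 larger and 24 reversed. Fitted on the 8 repeated-dose arrays alone, 388 passed after repeated doses.

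With the Gapdh value as a covariate 183 differed, 278 passed after a single dose, 110 persisted, 79 were larger and 3 reversed, and 40 of the 41 named differences still passed. Without arrays of a Gapdh value above 1, which leaves 1 TCE array per schedule that is assumed to vary like the other groups, the counts were 0, 18, 58, 4, 0, 0 and 0, with 1331 differences at an unadjusted p under 0.05. In an alternative chosen after seeing the data, TCE arrays above 1 were compared with oil arrays not above 1: 36 differed, 1686 passed after a single dose, 638 persisted, 13 were smaller and 10 larger, and 9 of the 41 still passed. The cause of these changes was not tested.

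With the replicate number as a block, 8 differed, 162 persisted, 4 were smaller, 0 larger and 4 reversed. The numbers do not pair the samples: same-numbered arrays of different groups correlated between -0.17 and 0.12, over 0.1 in 1 of 24 pairs. Leaving out each array in turn gave 21 to 118 differences, 519 to 1200 single-dose and 687 to 1345 repeated-dose calls, 130 to 326 persisting, 9 to 59 smaller, 7 to 54 larger and 4 to 16 reversing probe sets. Ratios carry no signal over background, so weakly hybridised probe sets could not be set apart.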
